A study of Mus musculus with 12 samples.

Results

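Blood platelets and the megakaryocytes that shed them were followed in whole mouse lung through 9 genes chosen by symbol from the count tables: Ppbp, Pf4, Itga2b, Itgb3, Gp5, Gp6, Gp9, Treml1 and Tubb1. All 9 were listed in both sets of libraries, among 33924 genes in the first set and 22609 in the second. The mice were of the B6 background, were 6 to 8 weeks old, and were sampled 14 to 16 h after treatment. In the first set, here called the RNase III set, all mice were wild type and received PBS (n = 2), extract of the house dust mite D.f. (n = 2), or D.f. extract with RNaseIII, an enzyme that cuts double-stranded RNA (n = 2). In the second, the knockout set, wild-type mice received PBS (n = 1) or D.f. extract (n = 2), and TLR3MAVS double knockout mice received PBS (n = 1) or D.f. extract (n = 2). Tlr3 senses double-stranded RNA in endosomes, and Mavs relays signals from RNA sensors of the cytosol. The labels do not say that libraries of a group came from separate animals, nor whether the genotypes were littermates, so that p-values measure the spread between these samples, which may be technical.

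Platelets carry no nucleus, and the transcripts they hold were made in the megakaryocyte. Megakaryocytes mature in bone marrow, and the lung, whose capillaries they reach with the blood, is also a site where they release platelets. Of the 9 genes, Ppbp and Pf4 encode chemokines stored in platelet alpha granules, and Itga2b and Itgb3 encode the subunits of the fibrinogen receptor. Gp5 and Gp9 belong to the receptor complex for von Willebrand factor, Gp6 is the collagen receptor, Treml1 is a receptor of the alpha granule membrane, and Tubb1 is the beta-tubulin of the platelet's marginal band. Itgb3 also pairs with another alpha chain in endothelial cells and macrophages, so that it is the least restricted of the 9. In RNA from whole lung, fewer platelets or megakaryocytes and less RNA per cell cannot be told apart.

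Each library held between 15687699 and 25714074 reads in genes, so that the 3 reads a count of 0 allows came to 0.117 to 0.191 counts per 1000000 assigned reads (CPM), a limit that covers counting error only. Lung markers were present in all 12 libraries, among them Sftpc of alveolar type 2 cells (2473 to 7332 CPM), Ager of type 1 cells (744 to 1477 CPM) and Cdh5 of endothelium (687 to 1423 CPM). In the knockout set, Mavs stood at 32.2 to 36.4 CPM in wild-type and 2.35 to 3.09 CPM in knockout libraries, and Tlr3 at 42.4 to 156 against 10.04 to 14.8 CPM. The libraries of a group differed by far more than counting noise. Wild-type PBS replicates 1 and 2 of the RNase III set stood furthest apart, with a summed level of 22 heart muscle genes of 340 and 3034 CPM and of 24 erythroid genes of 293 and 1401 CPM. Knockout D.f. replicate 6 stood apart from replicate 5 in Lyve1 (713 against 260 CPM) and Cxcr2 (49.8 against 7.76 CPM). Values without 1 of these libraries are given where they change a call.

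Stretches of 250 bases that end at the RefSeq start site (table build GRCm38.p6) were found for 8 of the 9 genes, and each of the 8 occurs once in NCBIM37, the build of the deposited counts (mm9). The set shown holds Ppbp, the gene with the clearest genotype difference, its neighbour Pf4, Tubb1, the next by p, and Gp5, which held the most GATA letters. They are read 5′ to 3′ on the gene's own strand, and capitals mark the letters found on either strand. Those searched for were AGATAA, with TGATAA as a variant, for GATA factors; GGAAGT, with the variant endings of GGAAAT as well as GGAAGC, for ETS factors; and TGACTCA, with TGCTGAC as the other end of the same element (both hold TGAC), for NF-E2.
Ppbp (chr5:91197294-91197543, plus strand): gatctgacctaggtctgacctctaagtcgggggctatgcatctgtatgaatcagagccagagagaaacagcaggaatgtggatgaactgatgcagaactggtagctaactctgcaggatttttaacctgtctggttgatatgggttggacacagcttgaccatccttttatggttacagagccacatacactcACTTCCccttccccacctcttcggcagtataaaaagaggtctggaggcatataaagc
Pf4 (chr5:91201211-91201460, plus strand): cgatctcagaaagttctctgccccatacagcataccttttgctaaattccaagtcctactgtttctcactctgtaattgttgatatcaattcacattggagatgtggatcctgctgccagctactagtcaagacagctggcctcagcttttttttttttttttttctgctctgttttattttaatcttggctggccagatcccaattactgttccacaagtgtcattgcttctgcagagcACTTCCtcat
Tubb1 (chr2:174275846-174276095, plus strand): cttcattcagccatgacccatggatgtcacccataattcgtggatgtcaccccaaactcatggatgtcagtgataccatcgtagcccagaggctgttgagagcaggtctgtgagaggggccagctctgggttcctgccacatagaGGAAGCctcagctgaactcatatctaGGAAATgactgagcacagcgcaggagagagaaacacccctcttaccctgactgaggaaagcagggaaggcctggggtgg
Gp5 (chr16:30310868-30311117, minus strand): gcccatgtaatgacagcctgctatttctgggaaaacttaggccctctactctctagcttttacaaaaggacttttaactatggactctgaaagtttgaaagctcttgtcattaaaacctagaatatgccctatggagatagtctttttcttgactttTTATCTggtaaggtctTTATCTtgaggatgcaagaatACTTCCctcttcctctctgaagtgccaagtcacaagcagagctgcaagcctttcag
An ETS letter group was present in 7 of the 8 stretches, against 46.8% of 32851 promoters of the same length, and GGAAGT alone in 5 of 8 against 19.7%. The Pf4 match, on the reverse strand, lay 5 to 10 bases before the start, and the Ppbp match 52 to 57 bases before it. A GATA group was present in 2 of 8, in Gp5 at 72 to 77 and 88 to 93 bases before the start and in Gp6 at 139 to 144, against 16.6% of promoters. The NF-E2 letters were in none of the 8, against 4.46% (TGACTCA) and 3.81% (TGCTGAC) of promoters. These matches are letters in a window, and no binding was measured.

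Every gene of the 9 was counted in every library, from 1 to 27 reads for Gp6 up to 701 to 1679 reads for Itgb3. Per kilobase of annotated exon, the medians over the 12 libraries ran from Itgb3 (9.96 CPM per kb), Pf4 (9.57) and Ppbp (7.14) through Tubb1 (2.61), Gp9 (1.54), Gp5 (1.40) and Itga2b (1.37) to Treml1 (0.530) and Gp6 (0.424). The leading genes changed places from library to library: Itgb3 exceeded Pf4 in 6 of 12 libraries, and Pf4 exceeded Ppbp in 8 of 12. Ppbp exceeded Tubb1, Tubb1 exceeded Gp9, and Itga2b exceeded Treml1 in 12 of 12, whereas Gp9 exceeded Gp5 in 6 and Gp5 exceeded Itga2b in 5. Itgb3 outweighed Itga2b, its partner in the fibrinogen receptor, 3.08-fold to 10.4-fold per kilobase within each library.

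**Figure D1:**
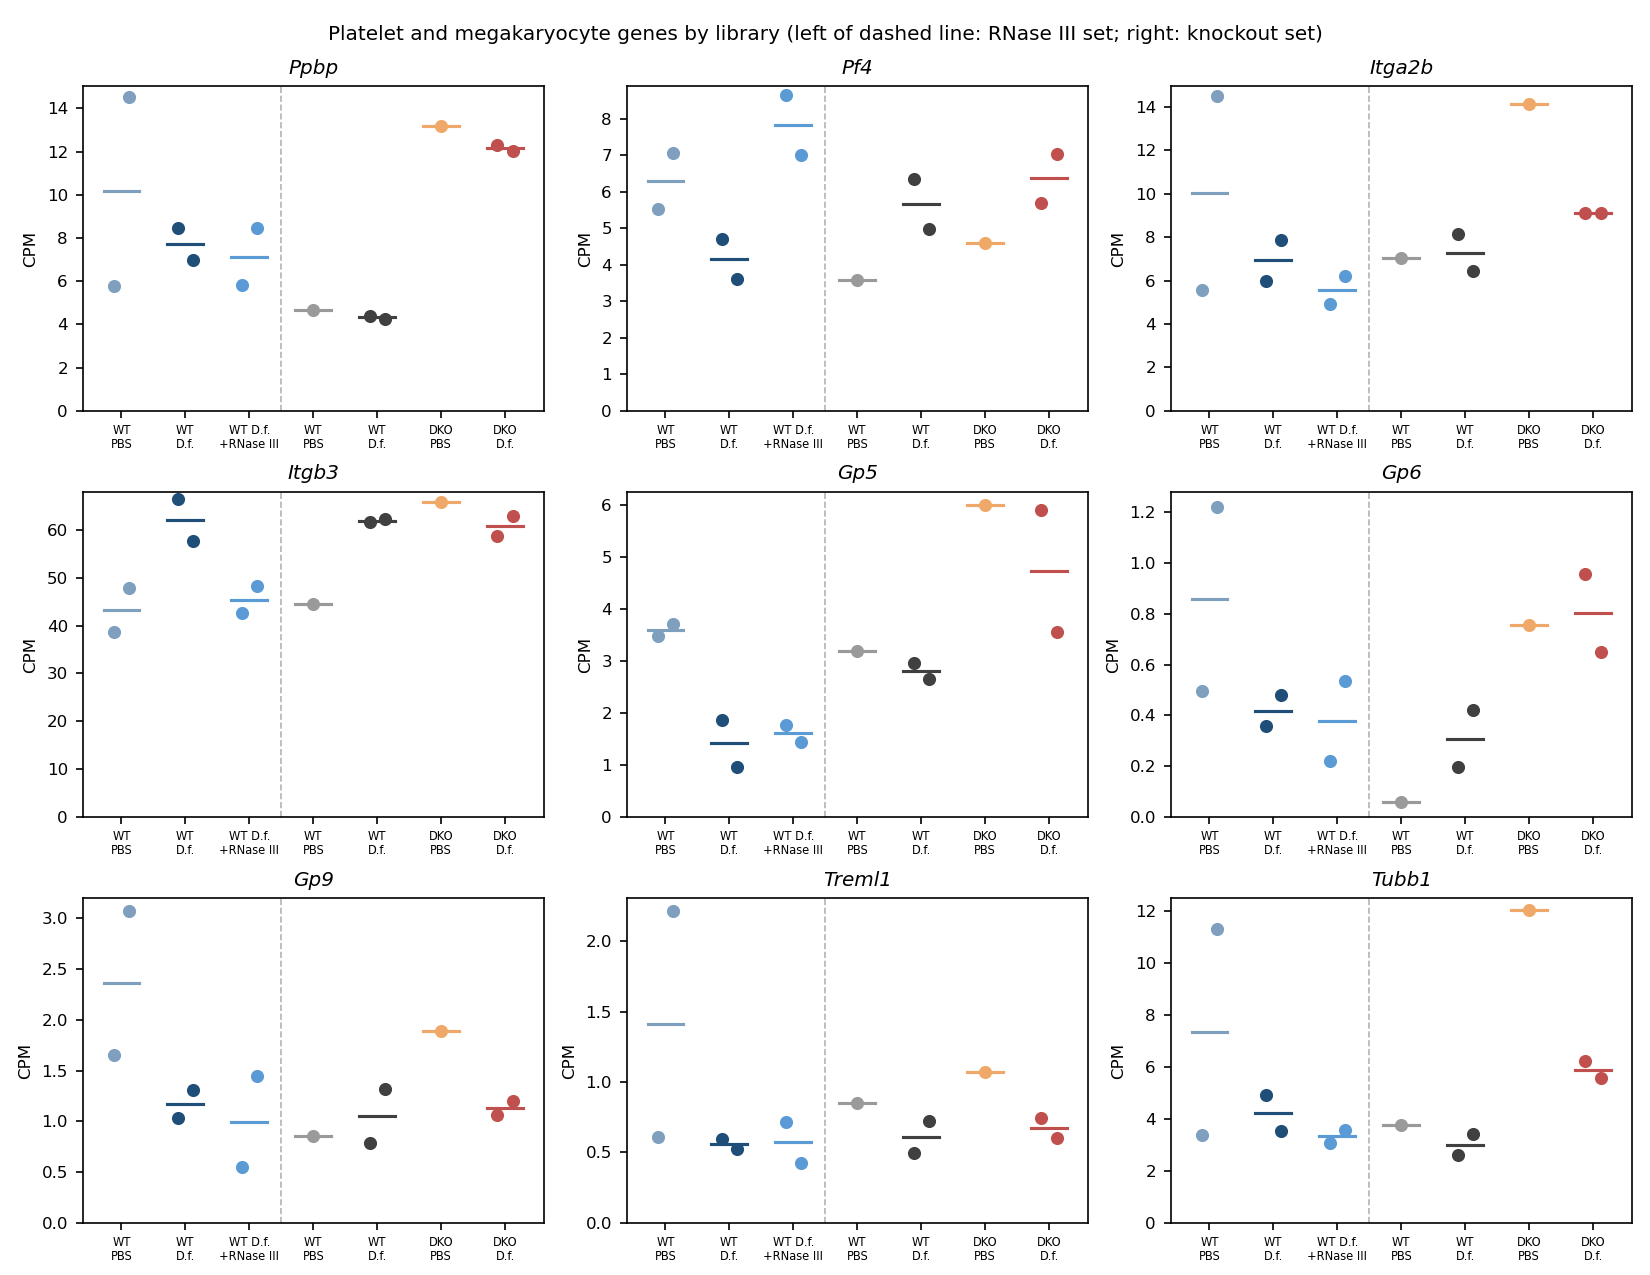
CPM of the 9 genes in each of 12 libraries (points), with lines at group means; blue groups are the RNase III set, grey wild-type and orange or red double knockout (DKO) libraries the knockout set. The knockout libraries of Ppbp (12.04 to 13.2 CPM) lie above the wild-type libraries beside them (4.26 to 4.67 CPM), but not above wild-type PBS replicate 2 of the RNase III set (14.5 CPM).

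The genotypes were compared first for the platelet chemokines, of which Ppbp was higher in the double knockout with either treatment while Pf4 showed no detectable difference. Ppbp encodes pro-platelet basic protein, the precursor of a neutrophil-attracting chemokine, and lies on chromosome 5 (NCBIM37, 91197544 to 91199086), 2374 bases upstream of Pf4. In the knockout set the wild-type libraries held 4.67 CPM with PBS and 4.39 and 4.26 CPM with D.f. extract, and the knockout libraries 13.2 CPM with PBS and 12.3 and 12.04 CPM with the extract. All 3 knockout libraries lay above all 3 wild-type libraries of that set, and within a genotype the 3 values lay close together.

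With D.f. extract the log2 fold change of Ppbp was 1.49 ± 0.15 (SE, 2 against 2 libraries), a 2.81-fold higher level, with an adjusted p of 0.0186 in edgeR's quasi-likelihood test (Benjamini-Hochberg, over all genes tested). It was the single called gene of the 9, where 2.53% of 15294 genes tested were called in either direction, 0.517% higher and 2.01% lower. Over both treatments together (3 against 3 libraries, with treatment as a term) the change was 1.49 ± 0.12 with an edgeR adjusted p of 0.0242, again the only call among the 9, where 0.203% of genes were called and 0.0262% were called higher. The size held while the call did not. Leaving out any 1 of the 6 libraries left the log2 change over both treatments at 1.47 to 1.49, whereas the edgeR adjusted p rose to 0.171 without wild-type D.f. replicate 3, 0.234 without wild-type D.f. replicate 4, 0.117 without knockout D.f. replicate 5 and 0.0678 without knockout D.f. replicate 6.

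The comparison with D.f. lost its call without wild-type D.f. replicate 3 (edgeR adjusted p = 0.283) or replicate 4 (0.212), and when the 12 libraries shared 1 fit (0.0751). Wild-type libraries of the RNase III set also bore on it: their Ppbp levels were 5.80 and 14.5 CPM with PBS, 8.48 and 6.97 with D.f., and 5.84 and 8.45 with D.f. and RNaseIII. PBS replicate 2 of that set exceeded every knockout library. With the 4 PBS and D.f. libraries of that set added to the wild-type side, a choice made after the data had been seen, the change was 1.49 ± 0.29 with an edgeR adjusted p of 0.165, where 0.0967% of 15518 genes were called.

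Pf4, platelet factor 4, is the other chemokine of the pair and binds heparin. In the knockout set it was counted at 3.59 CPM (PBS), 6.36 and 4.98 CPM (D.f.) in the wild type and at 4.60 CPM (PBS), 5.69 and 7.04 CPM (D.f.) in the knockout. The genotypes overlapped. The log2 difference over both treatments was 0.22 ± 0.18, with a 95% interval from -0.22 to 0.67 (edgeR adjusted p = 0.631). Within a library, Ppbp reads per Pf4 read came to 1.30, 0.690 and 0.855 in the wild-type and 2.86, 2.16 and 1.71 in the knockout libraries of this set, which did not overlap. In the RNase III set the same ratio ran from 0.675 to 2.06 in wild-type libraries alone.

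Tubb1, the tubulin by which platelets keep their disc shape, had the next clearest difference. Its levels were 3.76 CPM in wild-type PBS, 2.61 and 3.42 in wild-type D.f., 12.04 in knockout PBS, and 6.22 and 5.60 in knockout D.f. libraries. The knockout libraries again lay above the wild-type ones without overlap, the PBS library highest. The log2 difference was 0.97 ± 0.22 with D.f. (edgeR adjusted p = 0.0951) and 1.22 ± 0.22 over both treatments (edgeR adjusted p = 0.128), so neither passed the threshold, while DESeq2 called the latter (adjusted p = 0.00185). In the D.f. comparison the difference was 0.90 without knockout D.f. replicate 5 and 1.05 without replicate 6, each of which left 1 knockout D.f. library.

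For the fibrinogen receptor, the 2 subunits differed in pattern. Itga2b, the subunit restricted to the platelet lineage, stood at 7.06 CPM in wild-type PBS, 8.14 and 6.42 in wild-type D.f., 14.1 in knockout PBS, and 9.09 in both knockout D.f. libraries. These did not overlap between genotypes, and the log2 difference over both treatments was 0.55 ± 0.19 (edgeR adjusted p = 0.292). Itgb3 stood at 44.5 CPM in wild-type PBS, 61.6 and 62.3 in wild-type D.f., 65.8 in knockout PBS, and 58.7 and 63.0 in knockout D.f. libraries. Only the wild-type PBS library lay apart, below the other 5. With D.f. the log2 difference between genotypes was -0.03 ± 0.09, with a 95% interval from -0.25 to 0.20 (edgeR adjusted p = 0.915), and its sign turned with upper quartile scaling.

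Among the glycoprotein receptors, Gp5 and Gp6 separated the genotypes and Gp9 did not. Gp5, a subunit of the von Willebrand factor receptor complex, measured 3.19 CPM in wild-type PBS, 2.96 and 2.64 in wild-type D.f., 5.99 in knockout PBS, and 5.90 and 3.55 in knockout D.f. libraries, a log2 difference of 0.80 ± 0.24 over both treatments (edgeR adjusted p = 0.255). With D.f. it was 0.75 ± 0.31 (edgeR adjusted p = 0.287). It was 1.07 ± 0.26 without knockout D.f. replicate 6, which left 1 knockout D.f. library. Gp6 gave 1 read in wild-type PBS, 4 and 7 in wild-type D.f., 12 in knockout PBS, and 18 and 13 in knockout D.f. libraries. The knockout libraries held more reads throughout, and the edgeR adjusted p over both treatments was 0.258. Gp9, another subunit of the complex, measured 0.854 CPM in wild-type PBS, 0.789 and 1.32 in wild-type D.f., 1.89 in knockout PBS, and 1.06 and 1.20 in knockout D.f. libraries. Treml1 ranged from 0.493 to 0.854 CPM in wild-type and from 0.600 to 1.07 CPM in knockout libraries. Both overlapped between genotypes, with log2 differences of 0.46 ± 0.36 for Gp9 and 0.22 ± 0.32 for Treml1 over both treatments.

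**Figure D2:**
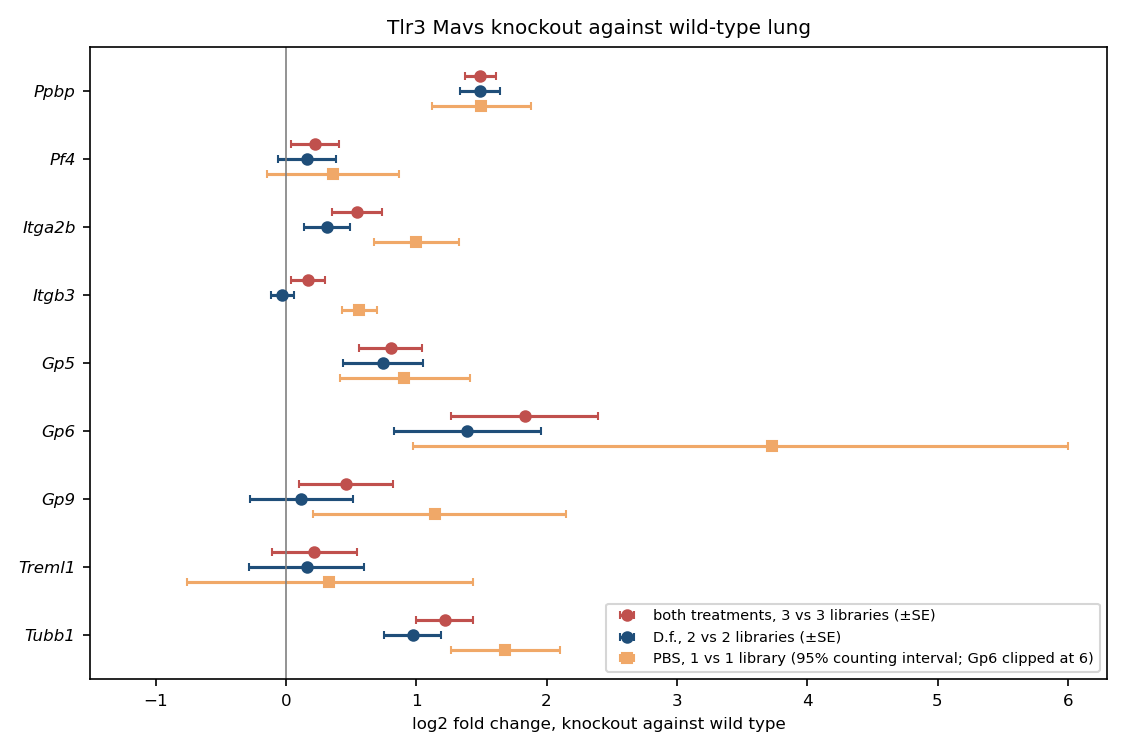
Log2 fold change of the 9 genes between double knockout and wild-type libraries of the knockout set: with D.f. and over both treatments with SE bars, and with PBS (1 library each) with 95% counting intervals. Ppbp lies at 1.49 in both fits and Tubb1 at 0.97 and 1.22. In both fits the bars of Pf4, Itgb3, Gp9 and Treml1 reach close to or past 0. With PBS the bars of Pf4 and Treml1 reach past 0, and those of Itgb3 and Gp9 lie above it.

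Counted over the 9, the 3 knockout libraries lay above the 3 wild-type libraries of their set for 5 genes (Ppbp, Itga2b, Gp5, Gp6 and Tubb1) and below them for 0, where 9.34% of all genes tested lay above and 7.49% below. The other 4 overlapped. Against the wild-type libraries of the RNase III set each of the 5 overlapped, since the highest of those exceeded the lowest knockout library: 14.5 against 12.04 CPM for Ppbp, 14.5 against 9.09 for Itga2b, 11.3 against 5.60 for Tubb1, 3.71 against 3.55 for Gp5 and 1.22 against 0.650 for Gp6. The median log2 difference of the 9 was 0.32 with D.f. and 0.55 over both treatments, against 0.01 and 0.01 over all genes tested. The median with D.f. was 0.50 without wild-type D.f. replicate 3 and 0.51 without replicate 4, and that over both treatments was 0.32 without either PBS library. With PBS there was 1 library of each genotype, hence no replicate check and no p-value. All 9 had the higher CPM in the knockout PBS library, and the 95% counting interval of the ratio lay above 1 for 7 of them, where it did for 22.1% of genes. Tubb1 was 3.21-fold (2.41 to 4.31), Ppbp 2.82-fold (2.18 to 3.69), Gp9 2.22-fold (1.16 to 4.43) and Itga2b 2.00-fold (1.60 to 2.51) higher in that library. Gp5 was 1.88-fold (1.34 to 2.66) and Itgb3 1.48-fold (1.35 to 1.62) higher, and Gp6 gave 12 reads against 1, a ratio of 13.3 (1.97 to 568). For Pf4 (1.28, 0.904 to 1.83) and Treml1 (1.26, 0.590 to 2.70) the interval included 1. At least 1.5-fold higher were 6 of the 9, where 6.64% of all genes were, and 0 were at least 1.5-fold lower, where 8.65% were.

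Markers of other cells and tissues were read in the same libraries. Of 12 erythroid genes tested, 0 separated the genotypes, with summed levels of 136 to 247 CPM in wild-type and 146 to 330 CPM in knockout libraries; all 6 globin genes listed (Hba-a1, Hba-a2, Hbb-b1, Hbb-b2, Hbb-bh1 and Hbb-y) were at 0 in every library of the knockout set. Alas2, an enzyme of haem synthesis in red cells, stood at 32.7 to 128 CPM in those same libraries, and Hbb-b1 at 136 to 805 CPM in the RNase III set, so that these zeros cannot be read as levels. The sets list 33924 and 22609 genes, so they were not counted over the same list of genes. What else differed in the counting is not given in the sources used here. These differences limit every value set across the sets, the fits over both sets included. Of 19 heart and pulmonary vein muscle genes, 17 lay lower in all 3 knockout libraries, with summed levels of 1051 to 2034 CPM in wild-type and 230 to 404 CPM in knockout libraries, the opposite direction to Ppbp; Myl2, Nppa and Nppb were at 0 in some libraries. Of 21 endothelial genes, 4 lay higher in all 3 knockout libraries and 0 lower, where 9.34% and 7.49% of all genes did. Their sums were 6793 to 7214 CPM in wild-type and 7822 to 8686 CPM in knockout libraries, with no gene at 0. Neutrophil genes summed to 142 CPM in wild-type and 287 CPM in knockout PBS, and with D.f. to 1737 and 1135 CPM in wild-type and 528 and 1770 CPM in knockout libraries. The Lyve1-type macrophage list summed to 965 to 1094 CPM in wild-type and 1186 to 1616 CPM in knockout libraries, with 1 of 14 genes tested higher in all 3 knockout libraries and Cd209g and Vsig4 at 0 in some. The part of these tissues in the genotype difference of the 9 genes was not tested.

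Itgb3 encodes the beta subunit of the fibrinogen and vitronectin receptors. For D.f. extract in wild-type lung, it was the only one of the 9 called in the fit over both sets. In the 3 wild-type PBS libraries of both sets it stood at 38.7, 47.8 and 44.5 CPM, and in the 4 wild-type D.f. libraries at 66.5, 57.7, 61.6 and 62.3 CPM. The treatments did not overlap; 11.5% of all genes likewise lay higher in all 4 D.f. libraries. The log2 change over both sets (7 libraries, with the set as a term) was 0.48 ± 0.11, a 1.40-fold rise, with an edgeR adjusted p of 0.0209. Called were 1 of the 9 genes, where 14.7% of 15481 genes were called in either direction and 8.53% higher. The change was 0.52 ± 0.15 in the RNase III set alone (edgeR adjusted p = 0.0752), and 0.68 without PBS replicate 2, which left 1 PBS library. In the knockout set alone it was 0.48 ± 0.11 (edgeR adjusted p = 0.126). There it was 0.48 without knockout D.f. replicate 5 and 0.45 without replicate 6. The call over both sets was lost without D.f. replicate 3 of the RNase III set (edgeR adjusted p = 0.0835), wild-type PBS replicate 1 of the knockout set (0.0719) or wild-type D.f. replicate 3 of the knockout set (0.0633).

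Gp5 was the 1 gene of the 9 whose wild-type D.f. libraries all lay below the PBS libraries. It measured 3.48, 3.71 and 3.19 CPM with PBS and 1.86, 0.958, 2.96 and 2.64 CPM with D.f. extract, and 6.97% of all genes likewise lay lower in all 4 D.f. libraries. The lowest values came from the RNase III set. There the log2 difference was -1.34 ± 0.37 (edgeR adjusted p = 0.0602), which DESeq2 called (adjusted p = 0.0438), as did edgeR with upper quartile scaling (0.0470), with no filter on low counts (0.0347) or in 1 fit over 12 libraries (0.0367). In the knockout set the wild-type difference was -0.18 ± 0.39 (edgeR adjusted p = 0.848), and over both sets -0.91 ± 0.33 (edgeR adjusted p = 0.111).

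The remaining 7 genes showed no call for D.f. extract in wild-type lung with all libraries in the fit. In the RNase III set the direction of Ppbp, Itga2b and Tubb1 hung on its PBS libraries. The log2 differences of Pf4 (-0.81 to -0.40), Gp6 (-1.54 to -0.25), Gp9 (-1.40 to -0.50) and Treml1 (-1.97 to -0.12) stayed negative with any library left out. In that set 0 of the 9 genes were called by edgeR, where 11% of 17165 genes were (6.51% higher and 4.5% lower). At an unadjusted edgeR p below 0.05 stood 3 of the 9, where 25.6% of all genes did. DESeq2 called 2 of the 9, and 2433 genes over the whole set. PBS replicates 1 and 2 measured 5.58 and 14.5 CPM for Itga2b, 3.37 and 11.3 CPM for Tubb1, 0.608 and 2.22 CPM for Treml1, and 1.66 and 3.08 CPM for Gp9. Replicate 2, the library with the higher heart muscle and erythroid sums, was the higher one each time. The D.f. libraries lay between the PBS values for Itga2b (5.98 and 7.88 CPM) and Tubb1 (4.91 and 3.53 CPM), and below both for Treml1 (0.594 and 0.522 CPM) and Gp9 (1.03 and 1.31 CPM).

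Without PBS replicate 1, D.f. in this set was compared with 1 PBS library, replicate 2, so that PBS had no spread of its own. The log2 differences were then -1.42 ± 0.26 for Tubb1, -1.97 ± 0.43 for Treml1, -1.06 ± 0.24 for Itga2b and -0.91 ± 0.25 for Ppbp. Over both sets, the fit without PBS replicate 1 of the RNase III set gave -1.41 for Treml1 and -0.98 for Tubb1. Without PBS replicate 2, the log2 differences in the RNase III set of Ppbp (0.42), Itga2b (0.31) and Tubb1 (0.33) were positive. The part of heart or blood RNA in the spread between these PBS libraries was not tested. In the wild-type libraries of the knockout set, 0 of 9 genes were called by edgeR, where 1.52% were (1.38% higher), and 0 by DESeq2. There 1 of the 9 stood at an unadjusted edgeR p below 0.05, where 17.1% of all genes did. Over both sets the median log2 difference of the 9 was -0.43, against -0.03 over all genes tested. That median turned to 0.073 without PBS replicate 2 of the RNase III set, and came to -0.77 without PBS replicate 1 of that set, -0.84 without wild-type PBS replicate 1 of the knockout set and -0.65 without wild-type D.f. replicate 4 of the knockout set.

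**Figure D3:**
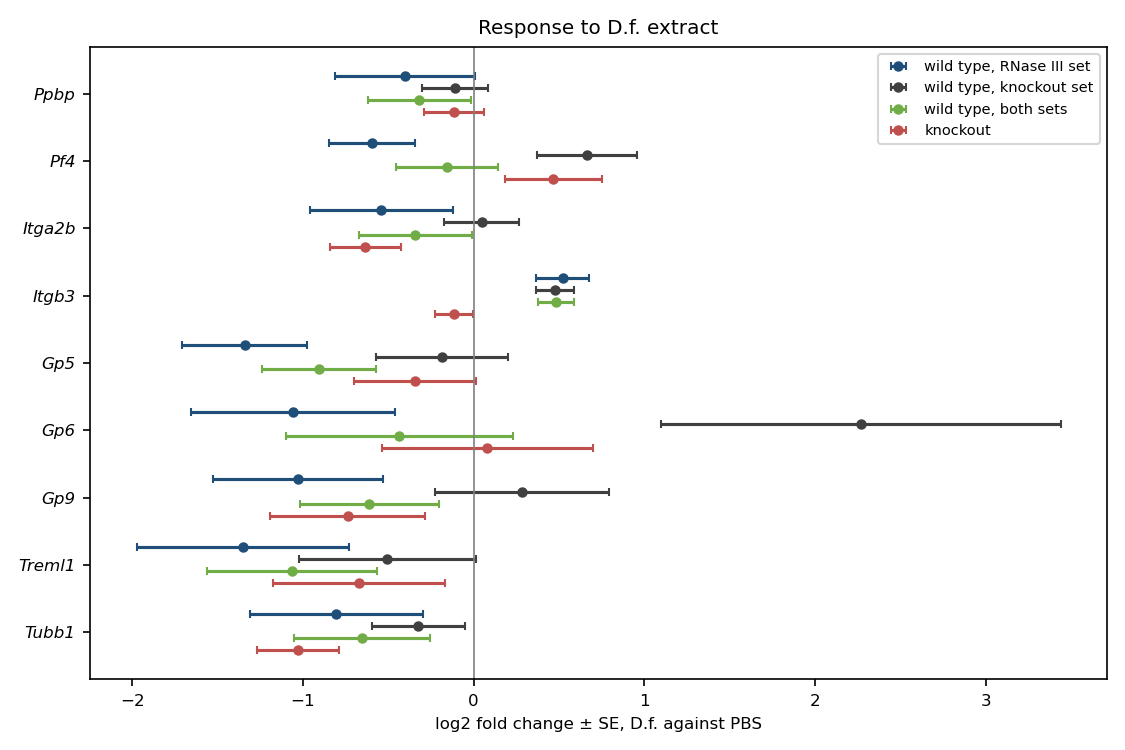
Log2 fold change (± SE, edgeR) of D.f. extract against PBS for the 9 genes in wild-type lung of each set, of both sets together, and in the double knockout. Itgb3 lies between 0.48 and 0.52 in the 3 wild-type fits and at -0.11 in the knockout, whereas Gp6 in the knockout set rests on 1 read in wild-type PBS.

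In the double knockout, 0 of the 9 genes were called for D.f. against PBS (2 libraries against 1), where 0% of all genes were called by edgeR. At an unadjusted edgeR p below 0.05 stood 2 of the 9, where 5.54% of all genes did, and DESeq2 called 0. Tubb1 had the clearest difference, from 12.04 CPM with PBS to 6.22 and 5.60 CPM with D.f. extract, a log2 value of -1.03 ± 0.24 (edgeR adjusted p = 0.819). The Tubb1 value was -1.11 ± 0.26 without knockout D.f. replicate 5, which left 1 library of each treatment in the knockout. Itga2b went from 14.1 CPM to 9.09 CPM in both D.f. libraries (-0.63 ± 0.21, edgeR adjusted p = 0.819). Ppbp differed by -0.12 ± 0.17, with a 95% interval from -0.55 to 0.32. Itgb3 differed by -0.11 ± 0.11 in the knockout, against 0.48 ± 0.11 in the wild type beside it.

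The test of that difference in response, the interaction of genotype and D.f. extract, gave -0.59 ± 0.16 for Itgb3 (unadjusted p = 0.0104, edgeR adjusted p = 0.313). It called 0 of the 9 genes, where 0.00654% of 15294 genes were called, and DESeq2 called 0. Itgb3 was the single gene of the 9 at an unadjusted edgeR p below 0.05, where 9.68% of all genes stood. The Itgb3 interaction was -0.54 without knockout D.f. replicate 5 and -0.61 without replicate 6, fits that held 1 knockout D.f. library. For Ppbp the interaction was -0.01 ± 0.27, with a 95% interval from -0.67 to 0.66, and its sign turned with RLE or upper quartile scaling, with DESeq2 and in 1 fit over 12 libraries.

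Treating the extract with RNaseIII went with a lower Itgb3 and a higher Pf4 level than untreated extract, neither past the threshold. Itgb3 measured 42.7 and 48.2 CPM with treated and 66.5 and 57.7 CPM with untreated extract, so that the treated libraries lay in the range of PBS (38.7 and 47.8 CPM) or just above it. The log2 difference was -0.45 ± 0.15 (edgeR adjusted p = 0.135), and it was called when PBS replicate 1 (0.0404) or 2 (0.0399) was left out of the fit. Pf4 measured 8.64 and 7.01 CPM with treated, 4.72 and 3.61 CPM with untreated extract, and 5.52 and 7.06 CPM with PBS. The log2 difference of Pf4 between treated and untreated extract was 0.91 ± 0.25 (edgeR adjusted p = 0.0809). DESeq2 (0.0408) and 1 edgeR fit over 12 libraries (0.0492) called it. Dropping either PBS library, so that PBS kept 1 library, gave 0.91 and 0.90. Gp5 stayed low with treated extract, at 1.76 and 1.44 CPM, against 3.48 and 3.71 CPM with PBS.

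Of the 9 genes, 0 were called between treated and untreated extract, where 7.26% of genes were (2.41% higher and 4.85% lower). At an unadjusted edgeR p below 0.05 stood 2 of the 9, where 22.2% of all genes did. DESeq2 called 1 of the 9, and 1905 genes over the whole set. Between treated extract and PBS 0 of 9 were called, where 0.00583% of genes were, and DESeq2 called 0. There 2 of the 9 stood at an unadjusted edgeR p below 0.05, where 4.86% of all genes did. These comparisons share their libraries with the D.f. comparison of the same set. Leaving out PBS replicate 1 left 1 PBS library. The log2 differences between treated extract and PBS were then -1.38 ± 0.24 for Itga2b and -1.76 ± 0.26 for Tubb1.

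Other platelet genes were read from 4 lists, and between genotypes over both treatments edgeR called 0 of them in either direction. At an unadjusted edgeR p below 0.05 stood 9 of 29 receptors, 14 of 32 granule proteins, 10 of 33 signalling genes and 5 of 25 transcription and maturation genes, where 14.4% of all genes did. DESeq2 called 3, 9, 0 and 0 of these, and 481 genes over the whole set. Of 29 receptors and adhesion molecules, 10 lay higher in all 3 knockout libraries and 1 lower (9.34% and 7.49% of all genes), with a median log2 difference of 0.10 against 0.01 over all genes. Among those with the smallest p were F2rl2, a thrombin receptor subunit, at 1.94 ± 0.32 (edgeR adjusted p = 0.103), and Gp1ba, which binds von Willebrand factor, at 1.56 ± 0.30 (0.142). F2rl2 was counted at 0.626, 0.493 and 0.300 CPM in wild-type and 2.27, 1.38 and 1.85 CPM in knockout libraries, and Gp1ba at 1.25, 0.493 and 0.900 against 3.03, 2.45 and 2.15 CPM. Neither overlapped between genotypes. Gp1ba is close to lineage-restricted, whereas Cd36 is abundant in endothelium and differed by 0.29 ± 0.07 (edgeR adjusted p = 0.183).

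Of 32 granule and secreted proteins, 8 lay higher and 5 lower in all 3 knockout libraries, to be read against the same 9.34% and 7.49%. Vwf, the carrier of platelet adhesion that endothelium also stores, measured 667, 670 and 671 CPM in wild-type and 1195, 900 and 1081 CPM in knockout libraries (0.65 ± 0.10, edgeR adjusted p = 0.0946). With D.f. extract alone, 3 of the 32 were called higher and 1 lower in the knockout, where 0.517% and 2.01% of all genes were. F13a1, the transglutaminase that cross-links fibrin and is also a macrophage gene, rose by 1.22 ± 0.15 (edgeR adjusted p = 0.0261), in the libraries whose Lyve1 level was also above the wild type. The fibrinogen chains Fga (50 and 51 reads against 2 and 0, edgeR adjusted p = 0.0268) and Fgg (49 and 71 reads against 8 and 2, 0.0408) are made chiefly by liver, and the membrane fusion protein Stx11 was lower (-0.69 ± 0.10, 0.0350).

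Of 33 platelet signalling genes, 7 lay higher and 1 lower in all 3 knockout libraries, where 9.34% and 7.49% of all genes did. With D.f. extract Treml2, a listed gene that leukocytes express, was lower (-1.11 ± 0.18, edgeR adjusted p = 0.0494). Of 25 megakaryocyte transcription and maturation genes, 5 lay higher and 0 lower in all 3 knockout libraries, beside the same shares of all genes. EdgeR and DESeq2 called 0 of the 25 with either fit. With D.f. 3 of 25 stood at an unadjusted edgeR p below 0.05, where 18.2% of all genes did. Nfe2, a transcription factor needed for platelet release, measured 2.33, 2.76 and 3.72 CPM in wild-type and 5.17, 4.52 and 3.60 CPM in knockout libraries, which overlapped. For D.f. extract in wild-type lung of both sets the signalling list had the most calls, with 14 of 33 genes higher and 1 (Stim1) lower, against 8.53% and 6.18% of all genes. Lcp2 (1.24 ± 0.10, edgeR adjusted p = 0.000191), Fyb (1.19 ± 0.10, 0.000297), Dok2 (1.25 ± 0.11, 0.000331) and Treml2 (1.73 ± 0.16, 0.000331) led it. Leukocytes express all of these, so they do not mark platelets. Neutrophil genes summed to 142 to 409 CPM in the PBS and 1135 to 2094 CPM in the D.f. libraries of this comparison, and their part was not tested.

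**Figure D4:**
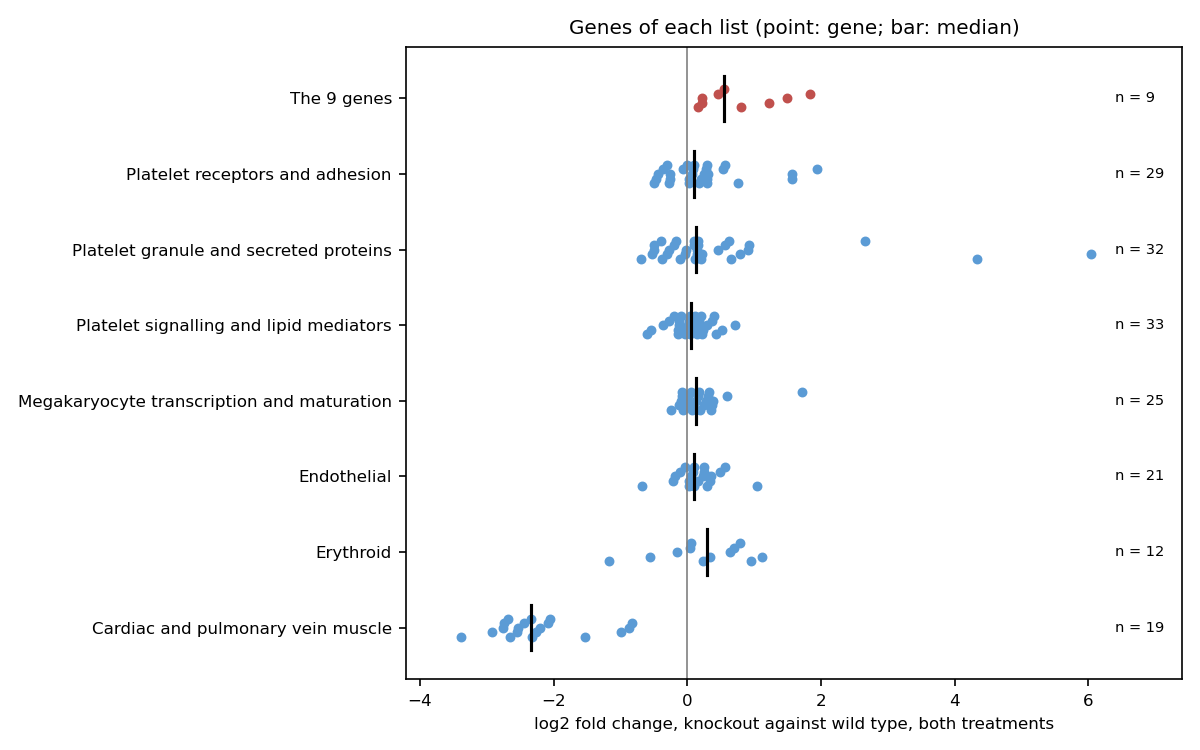
Log2 fold change between double knockout and wild type over both treatments, 1 point per gene tested, with a bar at each list's median. The 9 genes have a median of 0.55 and all lie above 0, the other platelet and megakaryocyte lists have medians of 0.05 to 0.14 with a few genes above 1, and the heart muscle list has a median of -2.33.

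Across the 12 libraries, each gene's log2 CPM was set against the mean of its own set, so that these values describe 12 points that share library and depth. Ppbp and Tubb1 (r = 0.88), Itga2b and Tubb1 (r = 0.87) and Ppbp and Gp6 (r = 0.82) varied together most, whereas Pf4 had an r of 0.21 with Ppbp and 0.00 with Itga2b, and Itgb3 an r of 0.26 with Itga2b. Wild-type PBS replicate 2 of the RNase III set and knockout PBS replicate 2 of the knockout set were the libraries in which most of the 9 were high. The mean profile of the 9 was most like those of Ppp2r5b (r = 0.94), Crebbp (0.92), Eng (0.92), Zfp180 (0.91), Zfp672 (0.91), Abt1 (0.91), Adcy4 (0.91), Zscan22 (0.91), Daglb (0.90) and Rogdi (0.90) among 13158 genes compared over 12 libraries. None of these 10 belongs to the platelet lists, while Eng belongs to the endothelial list, and 0.623% of genes reached an r of at least 0.8. Of whole lists, the mean profile of 23 megakaryocyte transcription and maturation genes had an r of 0.89 with that of the 9. The r was 0.67 for 22 platelet receptors, 0.45 for 26 granule proteins and 0.12 for 33 signalling genes, beside 0.49 for 21 endothelial and 0.48 for 12 erythroid genes. The megakaryocyte list mixes levels: in wild-type PBS of the knockout set Myh9 stood at 1812 and Flna at 1743 CPM, but Gata1 at 0.285 and Gfi1b at 0.171 CPM. Which cells its profile came from was not tested.

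**Figure D5:**
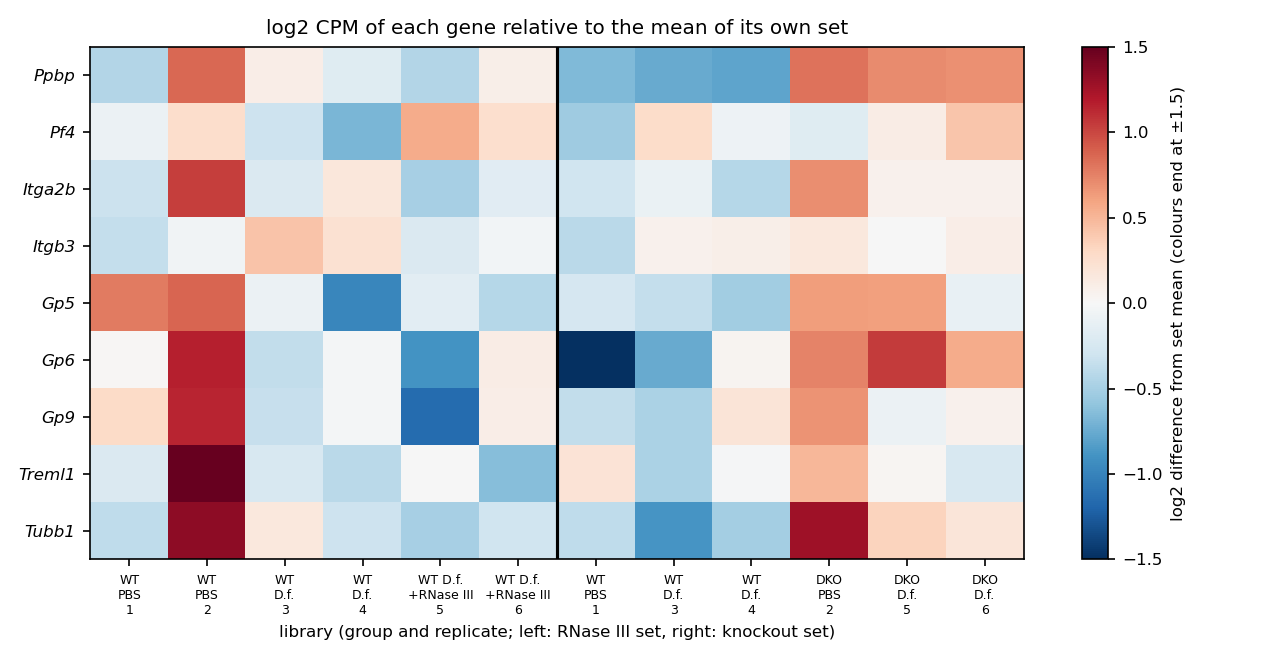
Log2 CPM of the 9 genes in 12 libraries relative to the mean of the gene in its own set of 6 (black line between sets); red is above and blue below the mean, and colours end at 1.5 either way. The reddest columns are wild-type PBS replicate 2 of the RNase III set and knockout PBS replicate 2, with Pf4 and Itgb3 the palest rows there.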

How the data were processed

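Whole-lung RNA was sequenced as 12 single-end libraries. Per the submitters' processing notes and the series' design text, reads were trimmed, mapped to mm9 with TopHat2 2.0.8b and counted with HTSeq. Which annotation HTSeq used, and whether it used strand, is not given in the sources used here, and reads of genes that overlap (small RNA models within Gp6 and Itga2b) cannot be told apart. The authors deposited raw read counts for each gene, without normalization, with 23.1% to 28.2% of reads assigned to genes. HTSeq's lines of unassigned reads were left out of library sizes and tests.

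Groups and replicate numbers came from the sample titles. The 9 genes, the gene lists and the comparisons were chosen with earlier results of these data known. Counts were tested in R 4.3.3 with edgeR 4.0.16 (TMM scaling, filterByExpr by group, glmQLFit and glmQLFTest), each set in its own fit, with Benjamini-Hochberg adjustment over all genes tested and a threshold of 0.05. All 9 genes passed the filter in every comparison. The genotype comparison over both treatments had treatment as a term, and the D.f. response over both sets had the set as a term. CPM use TMM-scaled library sizes, with values on the log2 scale taken with a prior count of 2. In the PBS comparison of 1 library each, exact 95% counting intervals of the ratio were used. Coordinates and exon lengths are from GENCODE mouse release M1 (NCBIM37), and 5′ sequences are from RefSeq.

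Named genes were all 9, up to 4 genes with the smallest p in each list described with any called genes, and the 10 most alike by Pearson's r, among genes whose log2 CPM averaged 1 or more. Other genes (Nfe2, Sftpc, Ager, Cdh5, Lyve1, Cxcr2) were named as markers or after their values were seen. Alternatives were DESeq2 1.42.0, RLE and upper quartile scaling, no filter, 1 fit over 12 libraries, and each library left out. The fits were tested on simulated data (3 draws, 200 genes changed in each). For knockout against wild type over both treatments (15294 genes), the tests found 70.8% of 2-fold and 91.5% of 4-fold changes, and 9.43% of calls were unchanged genes. For the genotypes with D.f. (15294 genes) they found 52.4% of 2-fold and 89.3% of 4-fold changes, with 10.3% of calls unchanged genes. In the RNase III set, for the extract against PBS (17165 genes), they found 46.4% and 85.4%, with 9.07%.
Some genes of the lists are not reported here.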

Additional observations from a re-analysis of the deposited data

Results flagged for a closer look

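The response of Itgb3 to D.f. extract differed between wild type and knockout by a log2 value of -0.59 ± 0.16 in the interaction of genotype and extract, at an unadjusted p of 0.0104 and an edgeR adjusted p of 0.313 over all genes. In the knockout set Itgb3 stood at 44.5 CPM in wild-type PBS and at 61.6 and 62.3 CPM in wild-type D.f. libraries. The knockout libraries held 65.8 CPM with PBS and 58.7 and 63.0 CPM with D.f. extract. Each PBS value rests on 1 library, and 9.68% of all genes stood at an unadjusted edgeR p below 0.05 in this interaction.

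The response of Pf4 to D.f. extract in wild-type lung differed between the sets by a log2 value of 1.27 ± 0.43, an interaction of set and extract with an unadjusted p of 0.0203 and an edgeR adjusted p of 0.826. Both D.f. libraries lay below both PBS libraries in the RNase III set, and both lay above the single wild-type PBS library in the knockout set. Gp6 showed the same opposite directions, with a difference of 3.35 ± 1.44 (unadjusted p = 0.0525, edgeR adjusted p = 0.906), at 1 to 27 reads per library. This interaction, added after the data had been seen, called 0 of 15481 genes by edgeR, with 856 at an unadjusted p below 0.05, and 54 by DESeq2.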

How the results depend on the processing

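The number of the 9 genes called by edgeR changed with the tool or the fit as follows. In the RNase III set, for the extract against PBS, it went from 0 to 2 with DESeq2, 1 with upper quartile scaling, 1 with no filter and 2 in 1 fit over 12 libraries. For treated against untreated extract it went from 0 to 1 with DESeq2 and 1 in the fit over 12 libraries. For knockout against wild type it went from 1 to 0 with D.f. in the fit over 12 libraries, and over both treatments from 1 to 2 with DESeq2 and to 0 with the wild-type libraries of the RNase III set added. With each library left out in turn, the calls ranged from 0 to 4 for the extract against PBS in the RNase III set, 0 to 2 for treated extract against PBS, 0 to 2 for treated against untreated extract, 0 to 1 for wild type in the knockout set, 0 to 1 in the knockout, 0 to 3 for the genotypes with D.f., 0 to 1 for the interaction, 0 to 1 for the genotypes over both treatments and 0 to 3 for wild type over both sets. Leaving out a PBS or D.f. library of the knockout set leaves some arms with a lone library, which is assumed to vary like the other groups.

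Counts of calls over all genes moved too. Over both treatments edgeR called 31 genes, against 481 with DESeq2, 75 with no filter and 15 with the added libraries, and from 2 to 383 with a library left out. With D.f. it called 387, against 736 with DESeq2 and 7 to 3048 with a library left out. The counts were 232 and 648 (0 to 3150 with a library left out) for wild type in the knockout set, 1 and 48 for treated extract against PBS, 1246 and 1905 for treated against untreated extract, 0 and 36 in the knockout, and 1 and 213 for the interaction, with no filter giving 10 for treated extract against PBS, 16 for the interaction and 391 for wild type in the knockout set. With a library left out, the range was 584 to 3071 for the extract against PBS in the RNase III set (1890), 0 to 188 for treated extract against PBS, 146 to 2874 for treated against untreated extract, 0 to 2092 in the knockout, 0 to 1666 for the interaction and 1080 to 2428 for wild type over both sets (2277).

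Log2 differences changed sign in 41 alternatives for single genes, none of them of a called gene. Upper quartile scaling gave -0.056 for Itga2b (wild type, knockout set), 0.025 for Itgb3 (genotypes with D.f.) and 0.089 for the Ppbp interaction, which was 0.0054 with DESeq2, 0.0051 with RLE and 0.039 in the fit over 12 libraries. The other reversals came from leaving out a library, and the cause was not tested. For the extract against PBS in the RNase III set the values ranged over Ppbp -0.91 to 0.42, Itga2b -1.06 to 0.31 and Tubb1 -1.42 to 0.33. For treated extract against PBS the values ranged over Itgb3 -0.072 to 0.23 and Ppbp -1.02 to 0.30. For treated against untreated extract the values ranged over Ppbp -0.40 to 0.13, Gp5 -0.22 to 0.74, Gp6 -0.90 to 0.36, Treml1 -0.38 to 0.36 and Gp9 -1.07 to 0.31. For the wild type of the knockout set the values ranged over Itga2b -0.17 to 0.18 and Gp9 -0.14 to 0.59. For the extract in the knockout the values ranged over Gp6 -0.22 to 0.34. For the genotypes with D.f. the values ranged over Gp9 -0.22 to 0.51, Treml1 -0.099 to 0.44, Pf4 -0.0016 to 0.36 and Itgb3 -0.077 to 0.023. For the interaction the values ranged over Ppbp -0.022 to 0.044, Pf4 -0.33 to 0.023, Treml1 -0.40 to 0.14 and Gp5 -0.57 to 0.19. For the genotypes over both treatments the values ranged over Itgb3 -0.028 to 0.26. For the wild type over both sets the values ranged over Ppbp -0.60 to 0.14, Pf4 -0.62 to 0.088, Itga2b -0.59 to 0.16 and Gp6 -1.09 to 0.41.

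No paired analysis was possible because the groups compared within a set share no replicate number. Depth limits Gp6, Treml1 and Gp9, counted at 1 to 27, 8 to 49 and 10 to 68 reads.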

Other observations

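Of the platelet signalling list, 8 of 34 genes were lower and 0 higher with RNaseIII-treated than with untreated extract, where 4.85% of all genes were lower. They included Treml2 (-2.16 ± 0.18, edgeR adjusted p = 0.00139), Lcp2 (-1.22 ± 0.12, 0.00211), Fyb (-1.19 ± 0.14, 0.00378) and Dok2 (-1.15 ± 0.15, 0.00548). Leukocytes express each of these, so they do not mark platelets. Among 30 granule and secreted proteins, Stx11 was lower (-1.08 ± 0.23, 0.0319). Myh10, a non-muscle myosin, was higher (1.06 ± 0.15, 0.00709) and Etv6 lower (-0.72 ± 0.13, 0.0215) among 24 transcription and maturation genes. In wild-type PBS of the knockout set Myh10 stood at 577 CPM, but Gata1 of the same list at 0.285 CPM. Which cells the Myh10 change came from was not tested. Of 29 receptors 0 were called by edgeR and 6 stood at an unadjusted edgeR p below 0.05, where 22.2% of all genes did. DESeq2 called 3 of them, and 1905 genes over the whole set. EdgeR gave the smallest p to Selp, the adhesion receptor of platelet granules and endothelium (-1.54 ± 0.43, edgeR adjusted p = 0.0828). Neutrophil genes summed to 1201 and 2094 CPM with untreated and 912 and 1026 CPM with treated extract, and their part was not tested.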
